A study of Homo sapiens with 15 samples.

Results

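The mRNAs of the DEAD-box and DEAH-box RNA helicases were followed from cytosolic extract into condensate pellets. A member was any protein-coding gene whose symbol in GENCODE 29 is DDX or DHX followed by a digit, for which every one of the 5 groups had 2 or more replicates with 10 or more counted reads. There were 55 such protein-coding genes, and 50 passed the filter, 35 of them DDX and 15 DHX, among 16612 genes kept of 57500 counted. Of the genes left out, DDX4, DDX53, DDX25 and DHX58 never had more than 3, 1, 3 and 9 counts in a library, and 1 further gene is not reported here. Pseudogenes and non-coding genes with such symbols, 33 in number, were not members.

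The extracts came from U2OS, a human osteosarcoma line labelled wild type, whereas the study's text speaks of YFP-G3BP1 condensates, a difference not settled here. Input was extract that was not pelleted. Pellets came from translation reactions of 2 h that received nothing (mock), 250 nM dsRNA, 2 µg/ml silvestrol or 1% PEG. dsRNA activates the kinase PKR, silvestrol blocks the helicase eIF4A, and PEG is a molecular crowder. Poly(A) RNA was sequenced from 3 biological replicates of each of the 5 groups, 15 libraries in all.

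The libraries held 15341973 to 46939993 counted reads, with the lowest totals in PEG (15341973 to 25675182). Of 5 mesenchymal marker genes, 4 had at least 10 counts in every library, whereas 6 hepatic markers summed to 41.4 CPM (a gene's reads relative to the library's total, scaled by TMM) or less and ALB, APOB and TTR were at 0 in at least 1 group. Libraries numbered 1 stood apart from those numbered 2 and 3, and counts of calls are therefore also given without them. Mitochondrially encoded mRNAs summed to 3574 to 4561 CPM in input, 8804 to 13836 CPM in mock, dsRNA and silvestrol pellets and 5915 to 8811 CPM in PEG pellets. Their part in the results for the helicase mRNAs was not tested. A pellet library gives each mRNA as a share of the pelleted poly(A) RNA, so more of one mRNA and less of the others cannot be told apart.

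DEAD-box and DEAH-box proteins bind RNA and use ATP to open short duplexes, to remodel RNA-protein complexes or to clamp RNA. They act at every step of an mRNA's life, from splicing and export to translation and decay, and many build ribosomes in the nucleolus. DDX3X, DDX6, DHX30, DHX36 and other family proteins are known components of stress granules, the condensates that form when translation initiation stops. The measurements here concern the mRNAs that encode them, not the proteins.

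Both families are named after the box that binds and hydrolyses ATP, and the coding sequence around this box is shown for the mRNAs on which the comparisons turn. The codons of the box spell DEAD in 26 of the 35 DDX mRNAs and DEAH in 8 of the 15 DHX mRNAs and in DDX11. Each line gives 30 bases of a coding exon from a GENCODE 29 transcript on GRCh38, 5′ to 3′, with the 12 bases of the box in capitals.
DDX3X, chrX:41345184-41345213, + strand, exon 12: ttggtgttaGATGAAGCTGATcggatgttg
DHX34, chr19:47355159-47355188, + strand, exon 3: ctgattgtgGATGAAGTCCATgagcggcat
DHX30, chr3:47846738-47846767, + strand, exon 11: gtcatcgtgGATGAGGTGCATgagcgggac
DDX39A, chr19:14410999-14411028, - strand, exon 5: tttgtgctgGACGAGTGTGACaagatgctg
DDX39B, chr6:31536510-31536539, - strand, exon 5: tttattttgGATGAATGTGATaagatgctt
DDX5, chr17:64503236-64503265, - strand, exon 7: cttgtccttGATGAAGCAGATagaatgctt
DDX17, chr22:38494934-38494963, - strand, exon 7: cttgtattgGACGAAGCTGACagaatgctt
DDX19A, chr16:70366192-70366221, + strand, exon 8: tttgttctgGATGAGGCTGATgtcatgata
DDX19B, chr16:70329399-70329428, + strand, exon 8: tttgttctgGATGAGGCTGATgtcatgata
DDX39A and DDX39B shared 23 of these 30 bases, DDX5 and DDX17 shared 24, and DDX19A and DDX19B shared all 30. No window of 50 bases in the longest DDX39A transcript occurred in a DDX39B transcript, nor any of DDX5 in DDX17, so reads of these pairs were separable. For DDX19B, 21.2% of the windows also occurred in DDX19A and 40.8% in the readthrough gene AC012184.2. Windows found in another gene also made up 31.8% for DDX19A, 36.8% for DDX11, 53.9% for DDX47, 24.5% for DHX40, 19.5% for DDX28 and 18.3% for DDX39B. By exon bases the shared part can be larger, at 30.8% for DDX39B, or smaller, at 0% for DHX40. Values of these genes are uncertain to an extent that was not measured.

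In input, the helicase mRNAs had a median length-normalised level of 10.5 RPKM, against 4.26 RPKM for all genes kept. DDX5, a nuclear coregulator of transcription and splicing, was highest at 77.2 ± 4.76 RPKM (SD, n = 3). DDX1, part of the tRNA ligase complex, followed at 57.7 ± 17.1 RPKM and the nucleolar DDX21 at 47.0 ± 12.0 RPKM, and these neighbours lay within their SDs. The antiviral DDX60 was lowest at 0.617 ± 0.132 RPKM, below the pre-rRNA processing helicase DDX47 at 0.951 ± 0.178 RPKM. Together the members took 0.490 ± 0.0304% of the counts in input (SD, n = 3). The share was 0.553 ± 0.0221% in mock, 0.554 ± 0.0130% with dsRNA, 0.557 ± 0.0257% with silvestrol and 0.409 ± 0.0256% with PEG.

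**Figure D1:**
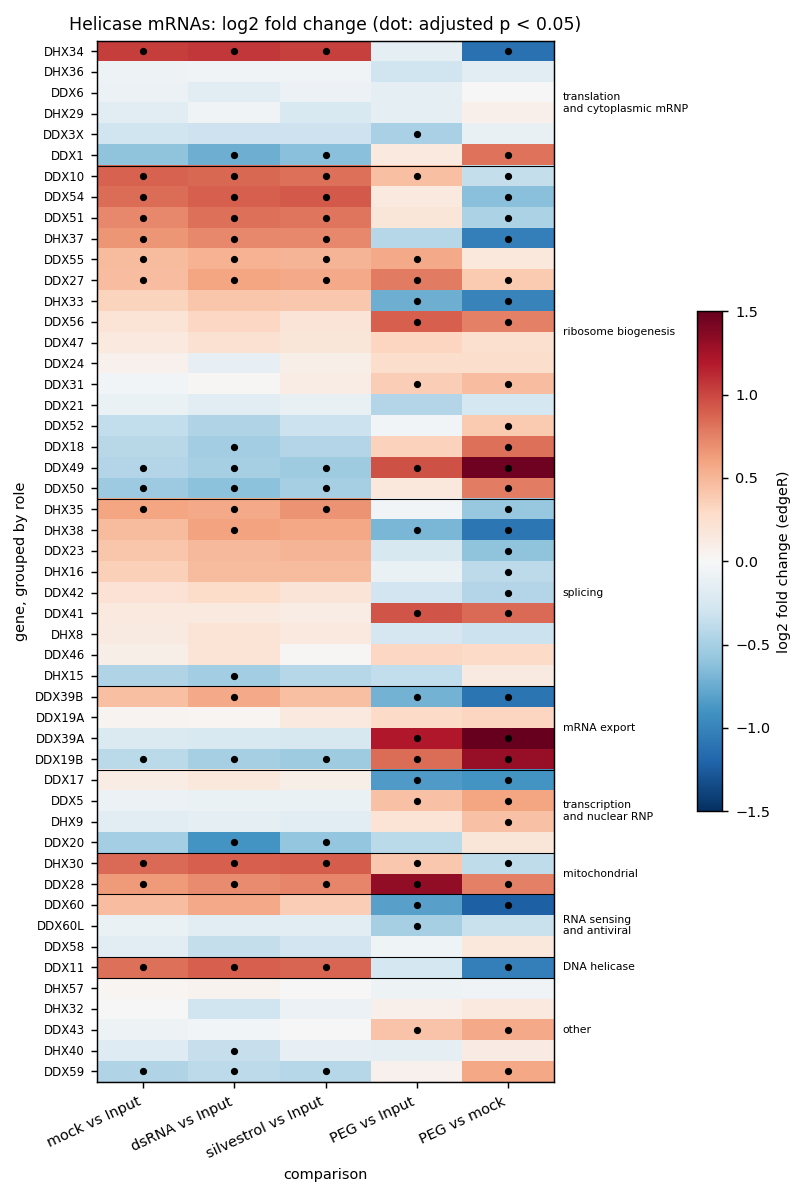
Log2 fold change of each of the 50 helicase mRNAs (rows, grouped by role) in 4 pellets over input and in PEG over mock (columns). Red is higher and blue lower in the first-named group, and a dot marks an edgeR adjusted p-value under 0.05; DHX34 is red in the first 3 columns and blue in PEG vs mock, and DDX39A is dark red in both PEG columns.

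The first question was which helicase mRNAs were enriched or depleted in a pellet over the extract it came from. A gene was called, and named enriched or depleted, when its edgeR quasi-likelihood p-value, adjusted over all genes, was under 0.05. In mock pellets, 11 of the 50 were enriched and 4 were depleted, while of all genes 17.6% were enriched and 15.8% depleted. With dsRNA the counts were 13 and 9 (all genes 21.1% and 19.6%), and with silvestrol 11 and 6 (all genes 19.4% and 18.1%). The median log2 fold change of the members was 0.05 in mock, 0.04 with dsRNA and 0.09 with silvestrol, against 0.00 for all genes in each. Every pellet library lay above every input library for 15 members in mock, 17 with dsRNA and 16 with silvestrol (all genes 25.7%, 28.1% and 27.3%), and below for 8, 12 and 10 (all genes 24.4%, 27.0% and 26.4%). DHX34, DHX30, DDX54, DDX10 and DDX11 were the mRNAs with the largest rises, at 2.05-, 1.80-, 1.79-, 1.85- and 1.77-fold over input in mock, and DDX50, DDX20 and DDX1 were among those with the largest falls. These 3 comparisons share the input libraries, and their values are given side by side.

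The calls depended on the replicates. With the replicate number as a block, a term that compares libraries within each numbered set, 18 members were enriched and 12 depleted in mock (all genes 32.5% and 30.1%), 19 and 13 with dsRNA (31.0% and 29.1%), and 17 and 11 with silvestrol (30.8% and 28.7%), and every call of the fit without the block was kept. Without the libraries numbered 1, the counts were 19 and 12 in mock (all genes 31.9% and 30.6%), 23 and 14 with dsRNA (33.6% and 33.2%) and 20 and 12 with silvestrol (32.9% and 31.9%). In mock, 7 members were enriched without mock replicate 2, mock replicate 3 or input replicate 3 (all genes 8.04% to 10.5%), and the depleted members fell to 1 when mock replicate 2 or input replicate 2 was left out, to 0 when mock replicate 3 was and to 2 when input replicate 3 was (all genes 6.12% to 11.6%). With dsRNA, 7 were enriched without input replicate 3 (all genes 15.3%), 6 were depleted without input replicate 2 or 3 (15.5% and 15.2%) and 2 without dsRNA replicate 2 or 3 (11.8% and 11.9%). With silvestrol, 3 were depleted without silvestrol replicate 2 (all genes 10.3%) and 2 without silvestrol replicate 3 (11.1%). Of the enriched mRNAs, 7 in each of the 3 comparisons stayed called whichever library was left out, and of the depleted ones 0 in mock, 2 with dsRNA and 2 with silvestrol. Calls kept in this way were not counted over all genes, so these numbers cannot be read as particular to the helicase mRNAs.

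Among the 6 mRNAs of translation and cytoplasmic RNP helicases, DHX34 alone was enriched in the 3 pellets. DHX34 (ENSG00000134815, chr19:47349281-47382704) acts in nonsense-mediated decay. It stood at 20.0, 24.0 and 23.6 CPM in input, 44.0, 44.9 and 46.8 CPM in mock, 52.2, 42.2 and 42.5 CPM with dsRNA and 51.3, 40.3 and 43.2 CPM with silvestrol. Every pellet library of these groups was above every input library. The log2 fold change was 1.04 in mock (SE 0.11, edgeR adjusted p = 0.00358), 1.06 with dsRNA (SE 0.14, edgeR adjusted p = 0.00244) and 1.02 with silvestrol (SE 0.14, edgeR adjusted p = 0.00259). DDX1 (ENSG00000079785, chr2:15591178-15631111) went the other way, from 297, 179 and 188 CPM in input to 177, 130.1 and 120.1 CPM in mock, 148, 122 and 119 CPM with dsRNA and 160.5, 128 and 131 CPM with silvestrol. Input replicate 1 was far above the other input libraries, and mock replicate 1 was nearly level with input replicate 2. The fall in DDX1 was called with dsRNA (-0.73, SE 0.21, edgeR adjusted p = 0.026) and silvestrol (-0.63, SE 0.21, edgeR adjusted p = 0.0477), whereas the mock value (-0.60) was not (edgeR adjusted p = 0.0865). In mock DDX1 was called with the replicate block (edgeR adjusted p = 5.15e-06), by DESeq2 (adjusted p = 0.0464) and without mock replicate 1. Leaving out 1 library at a time moved the value of DDX1 between -0.90 and -0.47 with dsRNA, where the call was lost without dsRNA replicate 2 or 3, and between -0.80 and -0.38 with silvestrol, where it was lost without any 1 of the silvestrol libraries or input replicate 3.

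The other 4 mRNAs of that group include those of the best-known stress granule helicases, and none was called in the main fit, which had no block. DDX3X (ENSG00000215301, chrX:41333348-41364472), which promotes translation of mRNAs with structured leaders, had 345, 260.2 and 268 CPM in input, 264, 211 and 215 CPM in mock, 230.2, 227 and 226 CPM with dsRNA and 254, 208 and 226 CPM with silvestrol. Its log2 fold changes were -0.30, -0.31 and -0.31, uncalled in the main fit (edgeR adjusted p = 0.172, 0.113 and 0.146) and called with the block (0.00341, 0.0371 and 0.022). Other alternative fits gave DDX3X an edgeR adjusted p as low as 0.00174 in mock and 0.00844 with dsRNA. DDX6, the P-body helicase of mRNA decay and repression, had 163, 121 and 132 CPM in input and 146, 119 and 117 CPM in mock, with log2 fold changes of -0.09, -0.16 and -0.08. DHX36, which unwinds G-quadruplexes, had 94.4, 66.7 and 68.0 CPM in input and 77.0, 70.4 and 65.2 CPM in mock, with -0.07, -0.05 and -0.05 on the log2 scale. DHX29, which helps the small ribosomal subunit scan structured leaders, had 73.8, 50.05 and 48.9 CPM in input and 50.7, 52.1 and 48.6 CPM in mock, with -0.15, -0.05 and -0.23. For DDX6, DHX36 and DHX29 the input and pellet libraries overlapped in these groups. With dsRNA, DHX36 was called higher by the fit with the block and an offset for GC content (0.23, edgeR adjusted p = 0.0154). DHX29 with dsRNA reached an edgeR adjusted p as low as 0.00792 over the alternative fits, though not with the block (0.872) or with block and GC offset (0.153). Its direction was not stable, with log2 values from -0.18 to 0.16 over the fits without 1 library. With dsRNA, DHX29 replicates 2 and 3 were at 62.6 and 52.3 CPM, above input replicates 2 and 3.

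Ribosome biogenesis helicases made up the largest group, with 16 mRNAs. In mock 6 were enriched and 2 depleted (all genes 17.6% and 15.8%). With dsRNA the counts were 6 and 3 (21.1% and 19.6%), and with silvestrol 6 and 2 (19.4% and 18.1%). DDX54 (ENSG00000123064, chr12:113157174-113185479), a nucleolar helicase, rose from 178, 156 and 176 CPM in input to 314, 273 and 303 CPM in mock, 364, 268 and 291 CPM with dsRNA and 354, 281 and 308 CPM with silvestrol. The log2 fold changes were 0.84, 0.89 and 0.92 (SE 0.12, 0.15 and 0.13; edgeR adjusted p = 0.00391, 0.0038 and 0.00299). DDX10, which acts in small-subunit assembly, rose from 51.8, 38.7 and 37.0 CPM in input to 74.6, 79.5 and 75.7 CPM in mock, a log2 fold change of 0.89 (SE 0.15, edgeR adjusted p = 0.00569). It was 0.87 with dsRNA and 0.83 with silvestrol. DDX51, DHX37, DDX55 and DDX27 were also enriched in all 3 comparisons, at 0.72, 0.66, 0.48 and 0.46 in mock. DDX54, DDX10 and DDX51 kept their calls in these 3 comparisons whichever library was left out. DHX37, DDX55 and DDX27 lost theirs in mock without mock replicate 2, mock replicate 3, input replicate 2 or input replicate 3 (ranges 0.46 to 0.80, 0.35 to 0.60 and 0.36 to 0.58), and DHX37 and DDX55 also without mock replicate 1.

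Depletion in the same role group concerned DDX49, DDX50 and, with dsRNA, DDX18 (-0.52, edgeR adjusted p = 0.037), whose call was lost without any 1 of the dsRNA libraries (range -0.65 to -0.33). DDX50, the paralog of DDX21, fell from 75.0, 66.7 and 70.3 CPM in input to 50.7, 47.7 and 43.4 CPM in mock, 42.8, 44.6 and 46.9 CPM with dsRNA and 49.9, 47.7 and 49.0 CPM with silvestrol. No pellet library of these groups reached the lowest input library. The log2 fold change was -0.54, -0.62 and -0.50 (edgeR adjusted p = 0.0101, 0.00454 and 0.00844), and the mock call was lost without mock replicate 3 (range over the fits without 1 library -0.62 to -0.49). DDX49 (ENSG00000105671, chr19:18919675-18928633), a nucleolar helicase, fell from 29.1, 28.5 and 29.3 CPM in input to 23.6, 19.4 and 19.4 CPM in mock and 20.0, 18.9 and 20.0 CPM with silvestrol. That was -0.44 in mock, -0.50 with dsRNA and -0.53 with silvestrol on the log2 scale (edgeR adjusted p = 0.0259, 0.0232 and 0.00654). The mock value of DDX49 ranged from -0.55 to -0.40 and was uncalled without replicate 2 or 3 of mock or input, and its dsRNA value ranged from -0.64 to -0.43 and was uncalled without dsRNA replicate 2 or 3 or input replicate 3. DDX21 itself, at 306, 201 and 201 CPM in input and 253, 199 and 193 CPM in mock, gave -0.10, -0.16 and -0.11 and was not called.

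Of 9 splicing helicase mRNAs, 1 was enriched in mock, 2 with dsRNA and 1 with silvestrol (all genes 17.6%, 21.1% and 19.4%). DHX15 alone was depleted, with dsRNA (all genes 19.6%). DHX35 was the one enriched in every comparison, from 16.4, 15.9 and 15.7 CPM in input to 23.7, 22.8 and 24.2 CPM in mock (0.59, SE 0.10, edgeR adjusted p = 0.00643), with 0.57 under dsRNA and 0.68 under silvestrol. DHX15, which dismantles spent spliceosomes, fell from 183, 122 and 127 CPM in input to 105, 90.9 and 96.5 CPM with dsRNA (-0.52, SE 0.17, edgeR adjusted p = 0.0425), and its call was lost without any 1 of the dsRNA libraries or input replicate 3 (range -0.66 to -0.33). DHX38, needed for the second catalytic step, was at 127, 86.7 and 92.1 CPM in input, 169, 120.5 and 123 CPM in mock, 189.6, 131 and 130.1 CPM with dsRNA and 188, 131 and 128 CPM with silvestrol. Replicate 1 of each pellet was highest, and mock replicates 2 and 3 lay below input replicate 1. Its log2 fold change of 0.60 was called with dsRNA (edgeR adjusted p = 0.0479), whereas 0.47 in mock and 0.58 with silvestrol were called with the block (edgeR adjusted p = 3.96e-05 and 0.000331) and not by edgeR on all 6 libraries without it (0.101 and 0.056). Without input replicate 1 both were called, and DESeq2 called the silvestrol value (adjusted p = 0.0373). The dsRNA call of DHX38 held only without input replicate 1 (range 0.40 to 0.78).

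Both mitochondrial members, encoded in the nucleus, were enriched in all pellets. DHX30 (ENSG00000132153, chr3:47802909-47850195), needed for mitochondrial ribosome assembly, rose from 164, 170.0 and 171 CPM in input to 309, 273 and 305 CPM in mock, 362, 259 and 290.4 CPM with dsRNA and 356, 272 and 298 CPM with silvestrol. All pellet libraries were above all input libraries. The log2 fold changes were 0.85, 0.89 and 0.91 (SE 0.11, 0.15 and 0.14; edgeR adjusted p = 0.00358, 0.00372 and 0.00315). DDX28, which also assembles the mitochondrial ribosome, gave 0.64, 0.71 and 0.74 from 5.48, 8.34 and 7.22 CPM in input, and its mock call was lost without mock replicate 2, mock replicate 3 or input replicate 3 (range 0.48 to 0.75). The single DNA helicase, DDX11, which acts in sister chromatid cohesion, rose from 89.9, 106 and 109 CPM in input to 172, 174 and 181 CPM in mock, 189, 178 and 187 CPM with dsRNA and 193, 174 and 181 CPM with silvestrol. These were log2 fold changes of 0.83, 0.90 and 0.88 (edgeR adjusted p = 0.00391, 0.00253 and 0.0027).

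Helicases of transcription and nuclear RNPs (4 mRNAs) and of mRNA export (4 mRNAs) were mostly not called. DDX5 and DDX17, paired coregulators, had log2 fold changes in mock of -0.09 and 0.11, and DHX9, a helicase of nuclear RNA and of structured double strands, had -0.17. DDX20, a component of the SMN complex that loads Sm rings on spliceosomal RNAs, was at 58.0, 43.0 and 43.2 CPM in input, 39.7, 31.6 and 27.1 CPM in mock, 30.4, 23.3 and 21.7 CPM with dsRNA and 36.8, 31.4 and 26.5 CPM with silvestrol. All libraries of these pellets lay under all input libraries. It was depleted with dsRNA (-0.89, SE 0.18, edgeR adjusted p = 0.00686) and silvestrol (-0.58, SE 0.17, edgeR adjusted p = 0.0321), whereas the mock value (-0.52) was not called (edgeR adjusted p = 0.0651). In mock DDX20 was called with the block (edgeR adjusted p = 2.69e-05), by DESeq2 (adjusted p = 0.0386) and without mock replicate 1. DDX19B, which releases mRNA at the nuclear pore, fell from 17.8, 18.2 and 15.3 CPM in input to 12.1, 12.7 and 13.0 CPM in mock and 10.9, 11.9 and 11.9 CPM with silvestrol. Its log2 fold changes were -0.41, -0.50 and -0.53 (edgeR adjusted p = 0.0387, 0.0211 and 0.0147). Whichever library was left out these stayed between -0.51 and -0.38, -0.59 and -0.44, and -0.64 and -0.49, but in mock the call held only without input replicate 3. The silvestrol call of DDX20 was lost without silvestrol replicate 2 or 3 or input replicate 1 (range -0.70 to -0.44). DDX39B, the export helicase also known as UAP56, gave 0.45, 0.57 and 0.45; it was called with dsRNA (edgeR adjusted p = 0.0286, lost in 4 of the 6 fits that left out 1 library, range 0.46 to 0.69) and, with the block, also in mock (6.52e-05) and with silvestrol (0.00177), as it was by DESeq2 (adjusted p = 0.0309 and 0.0345).

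None of the 3 RNA sensing and antiviral mRNAs was called in these 3 comparisons. DDX58, now named RIGI, senses viral double-stranded RNA ends and was at 9.52, 10.9 and 11.3 CPM in input, 7.88, 10.9 and 8.96 CPM in mock and 6.11, 9.70 and 8.19 CPM with dsRNA. The libraries overlapped between input and mock. Its log2 fold change with dsRNA was -0.36, uncalled without the block (edgeR adjusted p = 0.164) and called with it (0.0305). DDX60 was likewise called with the block, at 0.47 in mock, 0.56 with dsRNA and 0.37 with silvestrol (edgeR adjusted p with the block = 0.0054, 0.00709 and 0.0451), and with dsRNA also without dsRNA replicate 1. Among the 5 remaining members, DDX59 was depleted in all 3 comparisons, at -0.45, -0.39 and -0.43, from 15.2, 14.9 and 14.6 CPM in input to 9.87, 11.0 and 11.0 CPM in mock. Every mock library was below every input library for DDX59, and its calls were lost without replicate 2 or 3 of the pellet or input (ranges -0.50 to -0.40, -0.43 to -0.37 and -0.48 to -0.39). DHX40 was depleted with dsRNA (-0.35, edgeR adjusted p = 0.036), a call lost without replicate 2 or 3 of dsRNA or input (range -0.40 to -0.31).

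**Figure D2:**
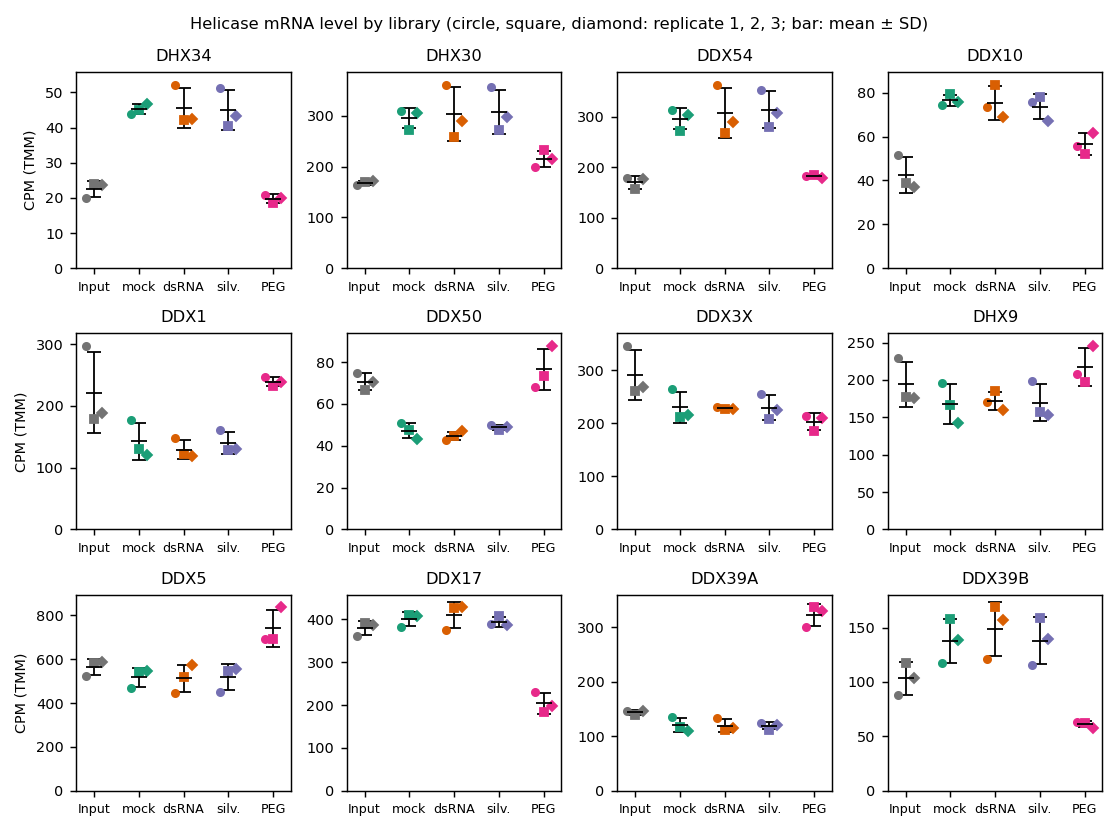
Normalised CPM (y axes, from 0) of 12 helicase mRNAs in the 15 libraries, by group (silv. is silvestrol), with circles, squares and diamonds for replicates 1, 2 and 3 and bars for mean ± SD (n = 3). DHX34, DHX30, DDX54 and DDX10 are higher in mock, dsRNA and silvestrol than in input, whereas DDX39A is highest and DDX17 and DDX39B lowest in PEG.

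The second question was whether a stressor changed the pelleted helicase mRNAs relative to the mock pellet. With dsRNA, 0 of the 50 were called higher and 0 lower by edgeR, as were 0% of all genes. An unadjusted p under 0.05 was found for 1 member, DHX32, and for 374 of the 16612 genes. DESeq2 called 0 members as well, with 0% of all genes higher and 0.391% lower. Library values did not overlap for 1 member above and 1 below mock with dsRNA (all genes 2.24% and 4.45%), and for 0 above and 1 below with silvestrol (all genes 1.61% and 1.93%). With silvestrol edgeR called 0 in either direction (0% of all genes), and DESeq2 0 (0% of all genes). An unadjusted p under 0.05 was found for 0 members and for 35 of the 16612 genes. The members' log2 fold changes ran from -0.39 to 0.12 with dsRNA and from -0.13 to 0.15 with silvestrol. Their 95% intervals, on 4 degrees of freedom, reached from -0.89 to 0.79 and from -0.73 to 0.71 over the 50 mRNAs in the fit without the block. A true difference anywhere inside an mRNA's own interval was compatible with that fit. The intervals are wider than the edgeR test implies, since that test uses more degrees of freedom. For DDX3X the interval was -0.34 to 0.31 with dsRNA and -0.36 to 0.35 with silvestrol, and for DHX30 it was -0.35 to 0.42 and -0.29 to 0.41.

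With the replicate block, 2 members were called lower with dsRNA than in mock, DDX20 and DHX32 (all genes 0.150% higher and 2.65% lower). DDX20 went from 39.7, 31.6 and 27.1 CPM in mock to 30.4, 23.3 and 21.7 CPM with dsRNA, lower in each numbered pair. Its blocked log2 fold change was -0.38 (edgeR adjusted p = 0.000162, against 1 without the block). DHX32 went from 40.2, 37.6 and 34.1 CPM to 35.0, 27.8 and 27.8 CPM, also lower in each pair, with -0.31 (edgeR adjusted p = 0.00278, against 1). Without the libraries numbered 1, 1 member was called lower (all genes 1.16%). With silvestrol the block called 0 members, while 0.0120% of all genes were called higher and 0% lower.

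The third comparison concerned PEG pellets, against input and against mock. Over input, 13 of the 50 helicase mRNAs were enriched and 7 depleted, with 25.5% and 25.9% of all genes. Over mock, 16 were higher and 16 lower, with 31.3% and 32.2% of all genes. Without overlap between libraries, 14 members were above and 12 below input (all genes 30.3% and 30.9%), and 20 above and 18 below mock (all genes 34.2% and 35.0%). DDX39A, DDX49, DDX19B, DDX41 and DDX28 led the rises, and DHX34, DDX39B, DHX38, DDX11 and DDX17 were among the largest falls. Of the 15 DHX mRNAs, 1 was higher and 7 were lower in PEG than in mock, while of the 35 DDX mRNAs 15 were higher and 9 lower; the difference between the families was not tested.

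Both PEG comparisons depend on the scale. With library size alone in place of TMM normalisation, the all-gene median of the log2 fold change moved from -0.01 to -0.36 over input and from -0.03 to -0.50 over mock. The members then split into 7 higher and 23 lower over input and 6 higher and 27 lower over mock, beside shares of all genes that split alike (14.1% and 41.5% over input, 18.8% and 49.8% over mock). Changes below are relative to the TMM scale. Of the members called, DHX9, DDX52 and DDX27 in PEG over mock turned below 0 with library size alone (-0.026, -0.074 and -0.086), and no other called member changed direction in either PEG comparison. Over input, enriched members numbered 24 and depleted 14 without the libraries numbered 1 (all genes 34.9% and 35.6%), and 20 were enriched without input replicate 1 (31.3%). They numbered 7 without input replicate 2, input replicate 3 or PEG replicate 3 (all genes 21.1%, 21.1% and 18.04%) and 8 without PEG replicate 2 (17.7%), which left 4 depleted (20.9%). With the block the counts were 13 and 10 over input (all genes 28.0% and 27.8%) and 18 and 17 over mock (all genes 33.7% and 34.4%). Over mock they were 20 and 17 without the libraries numbered 1 (all genes 37.2% and 37.8%), and 13 of the higher and 12 of the lower calls were kept whichever library was left out. For all genes, calls kept in this way were not counted.

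The mRNA export helicases diverged most in PEG. DDX39A (ENSG00000123136, chr19:14408819-14419383), also known as URH49, was at 147, 139 and 147 CPM in input, 136, 116 and 109.9 CPM in mock and 299.8, 336 and 330.4 CPM in PEG. DDX39B (ENSG00000198563, chr6:31530219-31542448) was at 87.9, 118 and 104 CPM in input, 117, 157 and 139 CPM in mock and 63.3, 62.1 and 58.1 CPM in PEG. PEG libraries lay above all others for DDX39A and under all input and mock libraries for DDX39B. DDX39A rose by 1.20 over input (SE 0.12, edgeR adjusted p = 0.000255) and by 1.49 over mock (SE 0.13, edgeR adjusted p = 1.41e-05) on the log2 scale. DDX39B gave -0.71 over input (SE 0.13, edgeR adjusted p = 0.00196) and -1.10 over mock (SE 0.13, edgeR adjusted p = 5.95e-05). DDX19B was at 12.1, 12.7 and 13.0 CPM in mock and 27.5, 32.8 and 28.6 CPM in PEG, with 0.84 over input (edgeR adjusted p = 0.00135) and 1.31 over mock (SE 0.12, edgeR adjusted p = 1.79e-05). Its neighbour and paralog DDX19A gave 0.29 over input and 0.32 over mock, neither called in the main fit. The value over mock (edgeR adjusted p = 0.0601) was called with the block (0.0463) and without PEG replicate 1 or mock replicate 1.

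In the ribosome biogenesis group, 6 of 16 mRNAs were enriched and 1 depleted in PEG over input (all genes 25.5% and 25.9%). Against mock, 7 were higher and 5 lower (all genes 31.3% and 32.2%). DDX49 was at 49.1, 58.1 and 55.3 CPM in PEG, above every input and mock library. Its log2 fold change was 0.95 over input (SE 0.12, edgeR adjusted p = 0.00046) and 1.46 over mock (SE 0.14, edgeR adjusted p = 1.81e-05). DDX56, of large-subunit assembly, gave 0.89 and 0.75 (edgeR adjusted p = 0.000698 and 0.000859), and DDX50 was near its input value (0.16) and 0.77 over mock (edgeR adjusted p = 0.00066). DHX33 was depleted, from 62.2, 51.5 and 54.1 CPM in input and 83.4, 59.1 and 64.3 CPM in mock to 32.5, 32.5 and 33.1 CPM in PEG, at -0.73 over input (SE 0.13, edgeR adjusted p = 0.00193) and also lower than in mock (edgeR adjusted p = 0.000289). DDX54 and DDX10 were at 183, 184 and 179 CPM and 55.9, 52.1 and 61.8 CPM in PEG, which was -0.63 and -0.36 against mock (edgeR adjusted p = 0.00105 and 0.0177), the DDX10 call being lost without PEG replicate 2 or mock replicate 2 (range -0.40 to -0.27). Over input DDX10 was enriched in PEG as well (0.46, edgeR adjusted p = 0.0464), a call that held only without input replicate 1 (range 0.35 to 0.65). DDX21, at 169.6, 159.6 and 181 CPM, was called in neither comparison (-0.44 and -0.27).

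Of the 9 splicing helicase mRNAs, 1 was higher and 5 were lower in PEG than in mock (all genes 31.3% and 32.2%). Over input, 1 was enriched and 1 depleted (all genes 25.5% and 25.9%). DHX38 (ENSG00000140829, chr16:72093562-72112912) fell to 67.2, 58.8 and 59.2 CPM, below all input and mock libraries, at -0.68 over input (SE 0.18, edgeR adjusted p = 0.0111) and -1.09 over mock (SE 0.16, edgeR adjusted p = 0.000251). DHX35, DDX23, DDX42 and DHX16 were also lower than in mock, at -0.57, -0.60, -0.44 and -0.39; the call of DDX23 was lost without PEG replicate 2 or 3 (range -0.71 to -0.35) and that of DHX16 without any 1 PEG library or mock replicate 1 (range -0.48 to -0.19). The mRNA that rose was DDX41 (ENSG00000183258, chr5:177511577-177517469), a helicase associated with the spliceosome, at 59.4, 61.0 and 62.3 CPM in input, 69.3, 64.4 and 64.1 CPM in mock and 108, 120.2 and 112 CPM in PEG. PEG libraries were above all libraries of the other groups. DDX41 rose by 0.94 over input (SE 0.11, edgeR adjusted p = 0.000355) and 0.86 over mock (SE 0.11, edgeR adjusted p = 0.00012).

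Of the translation and cytoplasmic RNP group, DDX3X was depleted in PEG over input, from 345, 260.2 and 268 CPM to 213, 185 and 210.4 CPM (-0.48, SE 0.16, edgeR adjusted p = 0.0304), a call lost without PEG replicate 2 (range -0.57 to -0.31). Against mock it gave -0.11 (edgeR adjusted p = 0.501). DHX34 was at 20.8, 18.5 and 20.1 CPM in PEG, within or just below its input range, and thus -0.14 over input (edgeR adjusted p = 0.355) and -1.12 against mock (SE 0.11, edgeR adjusted p = 2.73e-05). DDX1, at 247, 232 and 239 CPM, was 0.15 over input and 0.82 over mock (SE 0.16, edgeR adjusted p = 0.00159). The PEG libraries for DDX1 lay between the input libraries and above every mock library. DDX6, DHX36 and DHX29 were called in neither comparison, with -0.15, -0.30 and -0.14 over input and 0.01, -0.16 and 0.08 over mock.

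DDX5 and DDX17 separated in PEG. DDX5 was at 525, 582 and 588 CPM in input, 468, 540.0 and 545 CPM in mock and 692, 694 and 836 CPM in PEG. DDX17 was at 360.4, 391 and 386 CPM in input, 381, 411 and 408 CPM in mock and 231, 183 and 198 CPM in PEG. PEG was higher than both other groups in every library for DDX5 and lower in every library for DDX17. DDX5 rose by 0.44 over input (SE 0.13, edgeR adjusted p = 0.0211) and 0.59 over mock (SE 0.13, edgeR adjusted p = 0.00342), while DDX17 gave -0.85 over input (SE 0.13, edgeR adjusted p = 0.00101) and -0.90 over mock (SE 0.13, edgeR adjusted p = 0.000206). The call of DDX5 over input was lost without replicate 2 or 3 of PEG or input (range 0.29 to 0.46). DHX9 had 229, 177 and 176 CPM in input, 196, 167 and 143 CPM in mock and 208, 198 and 245 CPM in PEG, which gave 0.20 over input and 0.44 over mock (edgeR adjusted p = 0.0304), turning to -0.026 with library size alone. The DHX9 call was also lost without PEG replicate 3, mock replicate 2 or mock replicate 3 (range 0.32 to 0.58).

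For the mitochondrial helicases, DDX28 (ENSG00000182810, chr16:68021274-68023442) had the largest rise over input in PEG, to 15.0, 20.0 and 16.5 CPM (1.34, SE 0.18, edgeR adjusted p = 0.000611). It overlaps DUS2 on the opposite strand for 22.5% of its exon bases, and the strand setting of the counting is not given in the sources used here. DHX30 was at 200.4, 232 and 215 CPM in PEG, 0.40 over input (edgeR adjusted p = 0.0155) but -0.38 against mock (edgeR adjusted p = 0.0192), calls lost in 4 and 3 of the 6 fits that left out 1 library (ranges 0.30 to 0.41 and -0.44 to -0.31). DDX11 was at 85.7, 81.9 and 78.2 CPM, -0.26 over input (edgeR adjusted p = 0.0832) and -1.03 against mock (SE 0.11, edgeR adjusted p = 3.37e-05). Among the antiviral mRNAs, DDX60 and DDX60L were depleted over input (-0.82 and -0.50; edgeR adjusted p = 0.0268 and 0.0222), and DDX58 gave -0.07. DDX60 had few reads, at 3.08, 1.83 and 2.08 CPM in PEG, and its call was lost without replicate 2 or 3 of PEG or input (range -1.10 to -0.67), that of DDX60L without PEG replicate 2 (range -0.60 to -0.38).

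**Figure D3:**
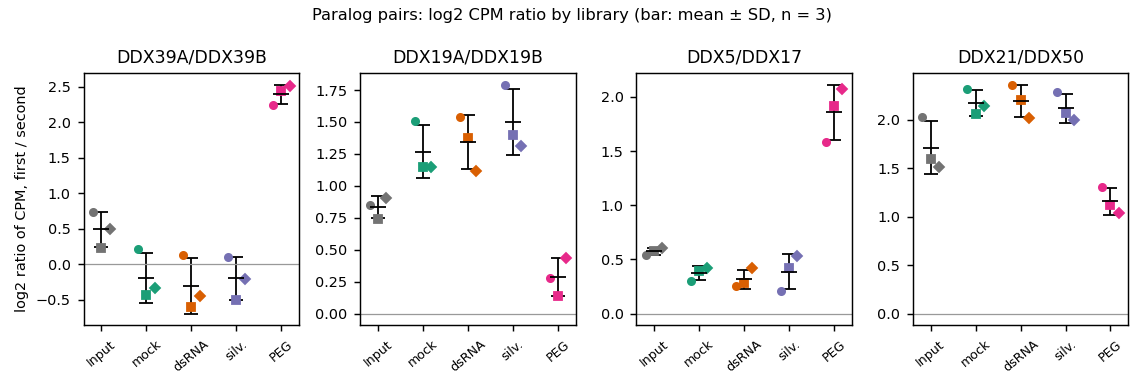
Log2 ratio of the normalised CPM of the first to the second paralog (y axes) in each of the 15 libraries by group (silv. is silvestrol), with replicates as symbols and mean ± SD as bars (n = 3). For DDX39A/DDX39B the PEG libraries lie between 2.24 and 2.51 and those of the other groups between -0.60 and 0.74; for DDX19A/DDX19B and DDX21/DDX50 PEG lies lowest.

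Ratios within a library do not depend on the scale between libraries, and 4 paralog pairs, chosen after their values were seen, are given as a description. The values are not adjusted for length, so only their change between groups is read. The log2 ratio of DDX39A to DDX39B was 0.49 ± 0.25 in input (SD, n = 3), -0.19 ± 0.35 in mock and 2.40 ± 0.14 in PEG. For DDX5 to DDX17 it was 0.57 ± 0.03 in input, 0.37 ± 0.06 in mock and 1.86 ± 0.25 in PEG. The ratio of DDX19A to DDX19B was 0.83 ± 0.08 in input, 1.27 ± 0.21 in mock and 0.28 ± 0.15 in PEG, and that of DDX21 to DDX50 was 1.71 ± 0.28, 2.18 ± 0.13 and 1.16 ± 0.14. In all 4 pairs the PEG libraries lay outside the range of the input and mock libraries.

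**Figure D4:**
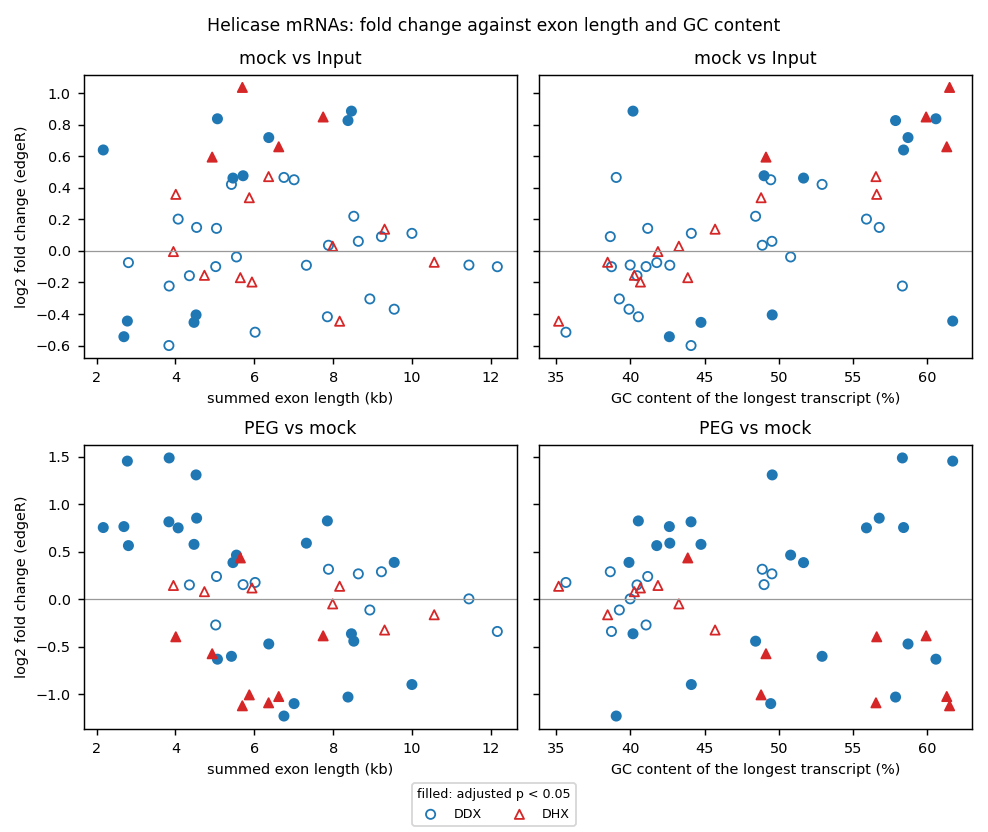
Log2 fold change of the 50 helicase mRNAs (y axes) in mock over input (top) and PEG over mock (bottom) against summed exon length in kb (left) and GC content of the longest transcript in percent (right), with circles for DDX, triangles for DHX and filled symbols for an edgeR adjusted p-value under 0.05. In the top right panel the enriched mRNAs other than DDX10 lie above the all-gene median of 48.8% GC. In the bottom left panel the 7 members with the shortest summed exons, of 2.17 to 3.95 kb, lie above 0.

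The members differed in length and base composition, and so did those that rose and fell. Their summed exon length ran from 2.17 to 12.2 kb (median 5.91 kb, all genes 4.43 kb) and their GC content from 35.2% to 61.7% (median 45.2%, all genes 48.8%). Enriched members had a median GC content of 58.4% in mock and depleted ones 47.2%, with 57.9% and 42.6% under dsRNA and 58.4% and 44.4% under silvestrol. Across the 50 mRNAs, which are not independent replicates and share their libraries, Spearman's correlation of GC content with the log2 fold change was 0.53 in mock, 0.55 with dsRNA and 0.56 with silvestrol, against 0.41, 0.45 and 0.44 over all genes. DHX34 (61.5% GC) and DHX30 (59.9% GC) were at the high end, and DDX10 (40.2% GC) and DDX49 (61.7% GC) ran against the trend. With a GC offset together with the block, the log2 fold change in mock was 0.61 for DHX34 (edgeR adjusted p = 3.01e-06), 0.48 for DHX30 (2.8e-05) and 1.10 for DDX10 (6.72e-08). That fit lowered DDX54 from 0.84 to 0.45, DDX51 from 0.72 to 0.41, DDX28 from 0.64 to 0.35, DDX11 from 0.83 to 0.55 and DHX37 from 0.66 to 0.23, all still called. DHX37, DDX28 and DDX54 were not called in every setting in mock, with an edgeR adjusted p of up to 0.553, 0.0923 and 0.0665. DDX49 went from -0.44 to -0.89 and DDX39A from -0.22, uncalled, to -0.53 (edgeR adjusted p = 1.10e-05). DDX3X, which the block called in mock, was at -0.09 with block and GC offset (edgeR adjusted p = 0.26).

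In PEG the members' values were also related to summed exon length. Spearman's correlation of exon length with the log2 fold change over the members was -0.47 over input and -0.43 over mock, against -0.48 and -0.48 over all genes, while in mock, dsRNA and silvestrol over input it was 0.13, 0.11 and 0.11. With GC content it was 0.34 in PEG over input (all genes 0.30) and -0.07 in PEG over mock (all genes 0.00). Members higher in PEG than in mock had a median exon length of 4.50 kb and those lower 6.49 kb. Summed exon length covers all annotated exons of a gene and is not the length of an mRNA. By this measure DDX49 (2.78 kb), DDX28 (2.17 kb) and DDX39A (3.84 kb) were among the shorter, and DDX17 (10.0 kb) and DDX39B (7.01 kb) among the longer. DDX5, with 7.32 kb of summed exons, rose, but its longest transcript held only 3509 windows of 50 bases, against 6392 for DDX17. DHX33, at 5.87 kb, near the median, fell. Median exon lengths of the families were close, 5.71 kb for DDX and 5.94 kb for DHX.

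Of 16 other RNA helicase mRNAs outside the DDX and DHX names, 5 were enriched and 2 depleted in each of the mock, dsRNA and silvestrol comparisons with input. All-gene shares there were 17.6% to 21.1% enriched and 15.8% to 19.6% depleted. In PEG over input, 6 were enriched and 7 depleted (all genes 25.5% and 25.9%). UPF1, the core helicase of nonsense-mediated decay, gave 0.80 in mock (SE 0.13, edgeR adjusted p = 0.00519), -0.47 in PEG over input (SE 0.14, edgeR adjusted p = 0.0182) and -1.21 in PEG over mock (SE 0.13, edgeR adjusted p = 3.6e-05). EIF4A1 and EIF4A2 encode forms of eIF4A, the helicase that silvestrol blocks. With silvestrol over mock they gave -0.07 (SE 0.10) and -0.03 (SE 0.14), neither called. In PEG over input they gave 0.72 (SE 0.13, edgeR adjusted p = 0.00200) and 0.61 (SE 0.13, edgeR adjusted p = 0.00403). EIF4A1 stood at 18.1 CPM in input and EIF4A2 at 478 CPM. Overlap with other genes was checked for members only. The dsRNA sensor IFIH1 was 0.06 with dsRNA over mock (SE 0.32) and not called.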

How the data were processed

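Poly(A) RNA of 15 libraries was measured, with total counts of 15341973 to 46939993 per library. The values are whole read counts of each gene, which the authors deposited without normalisation; the submitters' processing notes name Trimmomatic 0.36, STAR 2.5.2b, featureCounts of Subread 1.5.2 and GRCh38, with the strand setting not given in the sources used here. Symbols, coordinates and sequences came from GENCODE 29, in which 56898 of 57500 identifiers were found. A gene was kept when 2 or more replicates of every group reached 10 counts, which left 16612. Each comparison was fitted on its 6 libraries with edgeR 4.0.16 (TMM normalisation, quasi-likelihood F test, R 4.3.3) and p-values were adjusted over all genes by the Benjamini-Hochberg method, with 0.05 as the threshold. The study's methods name DESeq2, and DESeq2 1.42.0 was an alternative, beside other scalings, no filter, all 5 groups in 1 fit, a replicate block, a GC offset and libraries left out. Replicate numbers come from the labels. Same-numbered libraries deviated together, with correlations of 0.131 to 0.861 in every pair. Libraries numbered 2 and 3 also did so across numbers. Among mock, dsRNA and silvestrol pellets the same number gave the higher value for replicates 2 and 3. Mock replicate 2, for example, gave 0.649 with dsRNA replicate 2 and 0.539 with dsRNA replicate 3. Against input and PEG the order was mixed. Mock replicate 3 gave 0.554 with input replicate 3 and 0.583 with input replicate 2. The correlations thus set replicate 1 apart. Between replicates 2 and 3 they show pairing by number among mock, dsRNA and silvestrol pellets, and not clearly with input or PEG. The main fits took no pairing, and the replicate block was an alternative. CPM are counts scaled by TMM, and RPKM are also divided by the files' exon length. Values by library are given for DDX3X, DDX6, DDX1, DDX5, DDX17, DDX21, DHX9, DHX30, DHX36, DHX29 and, in each comparison, for the 4 largest rises and 4 largest falls among called members with a mean log2 CPM of at least 3; other members were named by role. Members, lists and this rule were chosen with earlier results of these data known. The fits were tested on simulated data. The level of 1 gene of this family is not reported here.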

Additional observations from a re-analysis of the deposited data

Results flagged for a closer look

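DDX19B and DDX49 were called in opposite directions over input in mock and in PEG pellets, and the direct difference between the pellets was tested. DDX19B was -0.41 in mock and 0.84 in PEG over input on the log2 scale, and PEG differed from mock by 1.31 (SE 0.12, edgeR adjusted p = 1.79e-05), higher in 3 of 3 libraries than every mock library. DDX49 was -0.44 in mock and 0.95 in PEG over input, and PEG differed from mock by 1.46 (SE 0.14, edgeR adjusted p = 1.81e-05), again with 3 of 3 libraries above every mock library. The mock calls over input of both were lost in 5 and 4 of the 6 fits that left out 1 library, while the PEG calls were kept in each of these fits. DDX19B shares 44.8% of its windows of 50 bases with transcripts of other genes. Summed exon length was 2.78 kb for DDX49 and 4.52 kb for DDX19B, below the members' median of 5.91 kb. The part of length in these values was not tested.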

How the results depend on the processing

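Counts of called helicase mRNAs follow, with the share of all genes called in brackets. With the replicate block, 18 were enriched and 12 depleted in mock (32.5% and 30.1%), 17 and 11 with silvestrol (30.8% and 28.7%), and 2 were lower with dsRNA than in mock (2.65%); beyond the calls it added, the block lost no call of a member in any comparison. Block and GC offset together gave 23 enriched and 9 depleted in mock (30.9% and 29.7%), 23 enriched with dsRNA (31.3%), 24 with silvestrol (29.6%) and 3 lower with dsRNA than in mock (2.62%). The GC offset alone left 5 depleted with dsRNA (17.3%) and 3 with silvestrol (15.8%). Without the filter on low counts, 7 were depleted in mock (7.89%), 8 enriched in PEG (10.9%) and 11 depleted in PEG (14.6%). With all 5 groups in 1 fit, 11 were depleted in mock (21.6%), 10 with silvestrol (23.2%) and 12 in PEG (29.96%). With library size only, PEG over input had 7 enriched and 23 depleted (14.1% and 41.5%) and PEG over mock 6 higher and 27 lower (18.8% and 49.8%), and DHX9 in PEG over mock turned to -0.026. Over the fits that left out 1 library or all libraries numbered 1, enriched counts ranged from 7 to 19 in mock (8.04% to 31.9%), 7 to 23 with dsRNA (14.2% to 33.6%), 8 to 20 with silvestrol (12.9% to 32.9%) and 7 to 24 in PEG (17.7% to 34.9%). Depleted counts ranged from 0 to 12 (6.12% to 30.6%), 2 to 14 (11.8% to 33.2%), 2 to 12 (10.3% to 31.9%) and 4 to 14 (20.9% to 35.6%), and members lower with dsRNA than in mock from 0 to 1 (0% to 1.16%). Apart from the fits' own construction, the cause of these shifts was not tested. Of 48 values of named mRNAs, the fits without 1 library left 244 on the same side of the threshold and 44 weaker, and the other alternatives left 407 the same, 24 weaker and 1 reversed. With 3 libraries a group an exact permutation p cannot fall below 0.1, and PEG, with the fewest reads, has the least precise low counts.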
